A study of Mus musculus with 12 samples.

Results

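A set of 9 genes of the Hedgehog pathway was followed in RNA sequencing of mouse spinal cord: the ligand Shh, the receptor Ptch1, the decoy receptor Hhip, the co-receptors Boc and Cdon, the signal transducer Smo and the transcription factors Gli1, Gli2 and Gli3. These 9 genes were chosen by name with their levels in the study's groups already known, and all 9 were found among the 54532 genes of the count table. Their levels and fold changes over the 4 groups are therefore a description, and no p-value of a member is printed. How many members passed the threshold applied to all genes (an adjusted p below 0.05) is given beside the share of all genes that passed it, where that share is at hand. That count describes the fit and is no test of the members. The study held 12 libraries of whole spinal cord, 3 mice in each of 4 groups. One genotype is labelled Drd2mGFAP conditional knockout (cKO), a cell-restricted deletion, by its label, of the dopamine D2 receptor gene Drd2. Their littermates labelled wt served as controls. Both were sampled either without disease (basal) or at day 17 of experimental autoimmune encephalomyelitis (EAE), an immune attack on myelin that follows immunization. All 4 groups were C57BL/6 mice of 2 to 3 months. The knockout label names GFAP, a filament protein of astrocytes, while the RNA came from all cells of the cord.

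In the textbook scheme of the pathway, Ptch1 holds Smo inactive until a Hedgehog ligand binds Ptch1. Released Smo then moves into the primary cilium, where it turns Gli2 and Gli3 from repressing into activating forms, and these switch on Gli1, Ptch1 and Hhip. Gli1, Ptch1 and Hhip transcripts therefore serve as readouts of signalling, and Ptch1 and Hhip also dampen it by binding ligand. In the adult central nervous system Shh is made largely by neurons, and Gli1 marks astrocytes that receive it.

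Promoter sequences of 6 of the 9 genes were held in the RefSeq table of build GRCm38.p6 (Gli2, Gli3, Ptch1, Smo, Hhip and Cdon). Those of Gli1, Shh and Boc were not used here. The 250 bases before the start of Ptch1 and Hhip are shown because these 2 readout genes were lower in EAE than at baseline in controls, and those of Smo because it was higher. Each runs 5′ to 3′ on the gene's strand, and capitals mark the GC box GGGCGG on either strand.
Ptch1: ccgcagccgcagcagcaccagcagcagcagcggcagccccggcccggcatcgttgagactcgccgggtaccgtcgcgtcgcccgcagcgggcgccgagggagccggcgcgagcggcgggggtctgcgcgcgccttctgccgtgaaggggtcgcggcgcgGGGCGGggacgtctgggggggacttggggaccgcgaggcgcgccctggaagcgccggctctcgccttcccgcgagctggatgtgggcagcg
Hhip: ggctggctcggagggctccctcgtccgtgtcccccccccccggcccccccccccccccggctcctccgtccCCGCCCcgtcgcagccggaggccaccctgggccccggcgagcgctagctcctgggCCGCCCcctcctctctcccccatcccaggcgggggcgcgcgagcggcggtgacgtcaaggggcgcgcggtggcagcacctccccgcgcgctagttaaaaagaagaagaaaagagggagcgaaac
Smo: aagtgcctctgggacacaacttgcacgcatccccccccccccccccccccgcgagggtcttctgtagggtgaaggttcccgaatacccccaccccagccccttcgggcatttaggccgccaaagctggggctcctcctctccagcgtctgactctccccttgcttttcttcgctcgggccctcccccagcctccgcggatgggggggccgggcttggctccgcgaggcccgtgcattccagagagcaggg
The Ptch1 window lay at chr13:63565736-63565985 on the minus strand, inside the span that the deposited table gives for Ptch1, since RefSeq starts this transcript further in. It held 78.4% G and C, 41 CpG dinucleotides and 1 GC box, which began 91 bases before the start. The Hhip window, at chr8:80058009-80058258 on the minus strand, held 76.0% G and C, 28 CpG dinucleotides and 2 GC boxes, 179 and 124 bases before the start. The Smo window, at chr6:29735247-29735496 on the plus strand, held 68.4% G and C, 15 CpG dinucleotides and no GC box. Over all 32851 windows of the same length the median was 52.4% G and C, and 32.7% held a GC box on either strand. The consensus GLI site GACCACCCA, searched on both strands, was in none of the 6 windows and in 0.225% of all windows. Its core ACCACCC, which lies within that site, was in 1 of the 6 windows, that of Gli2, 205 bases before the start, against 3.92% of all windows.

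The libraries held 15128913 to 17592105 counts, so that a level of 1 CPM, the usual unit of counts scaled by the library total, stood for 15.1 to 17.6 reads. Levels are TMM-normalised CPM, which also corrects for the composition of each library. Drd2 was counted in every library and was not lower in the libraries labelled cKO: at baseline it stood at 21.9 ± 4.02 CPM in controls and 28.6 ± 9.50 in cKO mice, and during EAE at 9.17 ± 0.396 and 12.9 ± 6.34 CPM (SD, 3 libraries each). In this whole-tissue RNA the targeted gene thus did not check the genotype labels, and cKO and control stand for the labels throughout. All 6 basal libraries carried Xist at 316 CPM or more and no Ddx3y, and all 6 EAE libraries the reverse, so basal mice were female and EAE mice male. Disease and sex cannot be told apart in any comparison of EAE with basal. In 2 libraries the values stood apart. Library cKO basal 2 had 17220 genes with a count against 24303 to 26056 in the others. In cKO EAE 3 the antigen presentation gene Cd74, high where immune cells have entered, was at 6.56 CPM against 340 to 2740 in the other 5 EAE libraries. Results are given with and without these 2 libraries.

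Shh, the ligand, had its lowest mean in control mice with EAE. Its levels were 10.8, 6.63 and 7.51 CPM in the 3 control basal libraries and 3.58, 4.68 and 4.26 CPM in the 3 control EAE libraries. They were 8.61, 4.55 and 5.84 CPM in cKO basal and 8.86, 5.81 and 8.02 CPM in cKO EAE. All 3 control EAE libraries thus lay below all 3 control basal libraries and below all 3 cKO EAE libraries, whereas basal and EAE overlapped in cKO mice. The log2 fold change from basal to EAE was -0.99 (SE 0.31) in controls and 0.25 (SE 0.31) in cKO mice. With bulk RNA, fewer cells of a type and less RNA per cell cannot be told apart, here and in all that follows. Shh (ENSMUSG00000002633) lies on chromosome 5 from 28456815 to 28467256, minus strand, in build mm10. Its exons overlap those of 9530036O11Rik by 446 bases and Gm26894 by 361 bases on the opposite strand in GENCODE M21. The strand setting of the counting is not given in the sources used here, so reads of such partners cannot be told apart.

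Ptch1, the receptor and a readout of signalling, likewise had its lowest mean in control EAE. Its 3 control basal libraries held 116, 167 and 171 CPM and its 3 control EAE libraries 96.4, 108 and 98.5 CPM. In cKO mice it held 188, 46.6 and 174 CPM at basal and 160, 132 and 168 CPM in EAE. The control EAE libraries were again below every control basal and every cKO EAE library, and the low basal value of 46.6 CPM came from cKO basal 2, the library with few detected genes. Without that library the cKO basal mean was 181 ± 9.69 CPM (SD, n = 2) in place of 136 ± 77.7 CPM (SD, n = 3). Ptch1 (ENSMUSG00000021466) spans 63508328 to 63573598 on chromosome 13, minus strand.

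Hhip, which binds Hedgehog ligands at the cell surface and is itself induced by the pathway, was the steadiest of the readout genes at baseline. In basal mice its levels were 23.1, 24.8 and 24.6 CPM in controls and 23.4, 19.0 and 25.0 CPM in cKO mice. In EAE it stood at 20.2, 18.4 and 13.1 CPM in controls and at 26.5, 27.7 and 21.1 CPM in cKO mice. The highest control EAE value lay below the lowest value of control basal and of cKO EAE, but in the latter case by less than 1 CPM. The difference between genotypes in EAE was 0.58 on the log2 scale (SE 0.19). Hhip (ENSMUSG00000064325) lies on chromosome 8 from 79965851 to 80058006, minus strand; a small RNA gene overlaps its exons by 175 bases and had 0 counts in every library.

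Boc and Cdon, which present ligand to Ptch1, did not follow the readout genes. Boc stood at 17.4, 22.6 and 25.6 CPM in control basal and at 30.5, 28.9 and 35.9 CPM in control EAE, with no overlap. In cKO mice Boc stood at 22.2, 5.0 and 27.2 CPM at basal and at 24.6, 35.9 and 24.6 CPM in EAE, which overlapped. Boc was thus higher in control EAE than at control baseline, opposite to Ptch1 and Hhip. Cdon stood between 6.36 and 13.1 CPM in all 12 libraries, and its groups overlapped in each of the 4 pairwise comparisons. Its mean at baseline was 9.84 ± 3.20 CPM in controls and 10.7 ± 1.55 in cKO mice, and during EAE 11.1 ± 1.02 and 12.7 ± 0.677 CPM (SD, 3 libraries each). Boc (ENSMUSG00000022687) spans 44485049 to 44558897 on chromosome 16, minus strand, and Cdon (ENSMUSG00000038119) spans 35421128 to 35507652 on chromosome 9, plus strand.

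Smo, the membrane protein that passes the signal into the cell, was higher in control EAE than in control basal. It held 20.9, 26.0 and 25.1 CPM in control basal and 39.1, 37.3 and 44.0 CPM in control EAE. In cKO mice it held 29.1, 6.37 and 25.8 CPM at basal and 33.0, 37.7 and 24.4 CPM in EAE. The control groups were clearly apart, while in cKO mice the EAE library with little Cd74 (24.4 CPM) lay within the basal range. Smo (ENSMUSG00000001761) lies on chromosome 6 from 29735503 to 29761365, plus strand.

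Gli1, the transcription factor whose own expression depends most directly on the pathway, had the largest fold change of the 9 genes between basal and EAE in controls. The 3 control basal libraries held 7.18, 11.3 and 7.57 CPM, and the 3 control EAE libraries held 1.73, 2.31 and 2.16 CPM, from 30, 39 and 37 reads. The cKO libraries held 10.2, 2.18 and 11.4 CPM at basal and 6.32, 4.13 and 13 CPM in EAE. Each control EAE library was below every control basal and every cKO EAE library, and cKO EAE spread widely. The highest cKO EAE value, 13 CPM, was in the library with little Cd74. Without it the cKO EAE mean was 5.23 ± 1.55 CPM (SD, n = 2), against 7.82 ± 4.62 CPM with it (SD, n = 3), 10.8 ± 0.856 CPM in cKO basal without library 2 (SD, n = 2) and 2.07 ± 0.300 CPM in control EAE (SD, n = 3). Gli1 (ENSMUSG00000025407) lies on chromosome 10 from 127329882 to 127341974, minus strand, and its exons overlap those of Arhgap9, on the opposite strand, by 62 bases. Arhgap9 went the other way, with 38 to 65 reads in control basal, 468 to 563 in control EAE and 45 to 342 in cKO EAE.

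Gli2 and Gli3, which act upstream of Gli1 as activator and repressor, showed no such pattern. Gli2 stood at 5.53, 13.5 and 11.3 CPM in control basal and at 8.88, 8.82 and 8.57 CPM in control EAE, within the basal range. In cKO mice it stood at 10.2, 0.0910 and 8.59 CPM at basal and at 9.14, 9.88 and 9.85 CPM in EAE, and the value of 0.0910 CPM was 1 read in cKO basal 2. Gli3 stood at 6.99, 9.17 and 10.5 CPM in control basal and at 11, 9.59 and 10.8 CPM in control EAE. In cKO mice Gli3 stood at 10.4, 4.09 and 8.65 CPM at basal and at 10.9, 11.8 and 10.6 CPM in EAE, where all EAE libraries were above all basal ones. Neither gene reached a difference of 1 on the log2 scale in any comparison. Gli2 (ENSMUSG00000048402) spans 118834132 to 119053619 on chromosome 1, minus strand, and Gli3 (ENSMUSG00000021318) spans 15463235 to 15730026 on chromosome 13, plus strand.

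**Figure D1:**
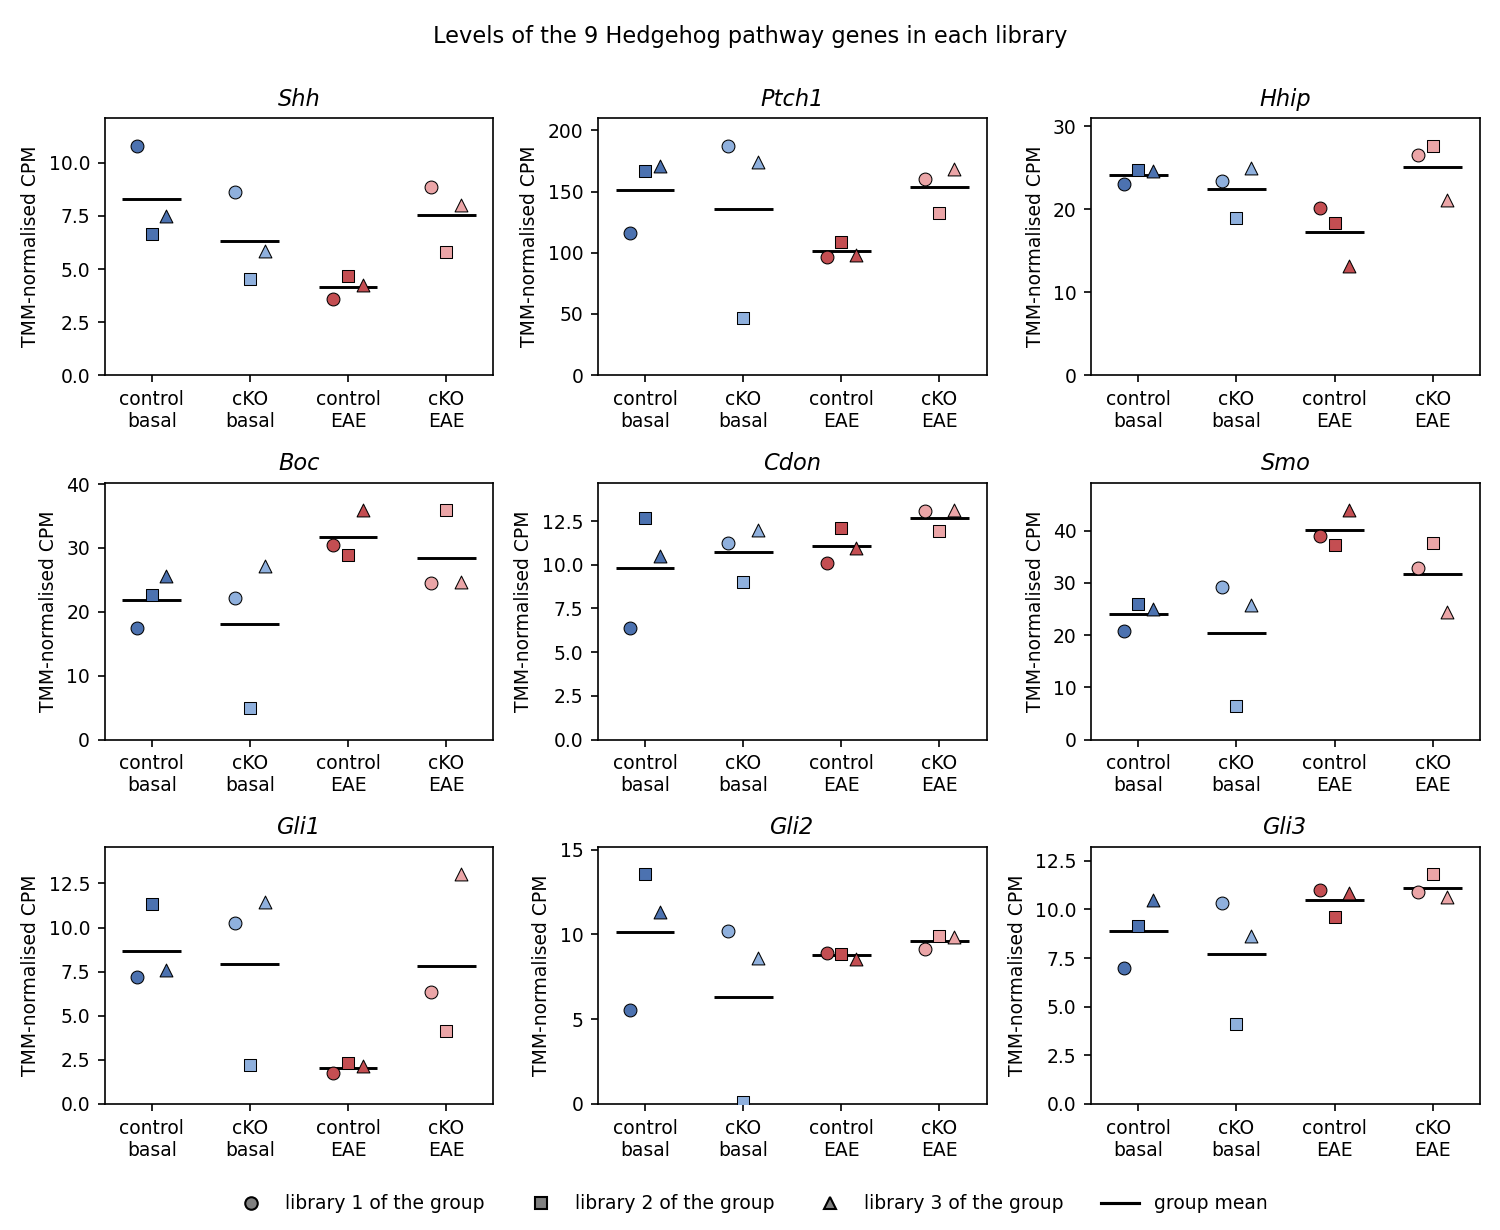
TMM-normalised CPM (y axis, from 0) of the 9 genes in each of the 12 libraries by group, with 1 point per library, marker shapes for libraries 1 to 3 and a line at the group mean. The means of Gli1, Shh and Hhip are lowest in control EAE, as is that of Ptch1, and library 2 of cKO basal (squares) is far below its group in Gli1, Gli2, Ptch1, Smo and Boc.

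The first comparison set EAE against basal in control mice, where disease and sex cannot be told apart. Gli1 was lower in EAE, with a log2 fold change of -2.07 (SE 0.59), while 49 of 18601 genes tested had a lower value. Gli1 was the 1 member past the threshold in edgeR's quasi-likelihood test, which 17.1% of all genes passed, 5.05% as lower and 12.1% as higher. The other log2 fold changes were -0.99 (SE 0.31) for Shh, -0.58 (SE 0.40) for Ptch1, -0.49 (SE 0.21) for Hhip and -0.21 (SE 0.83) for Gli2, and 0.74 (SE 0.43) for Smo, 0.54 (SE 0.47) for Boc, 0.24 (SE 0.31) for Gli3 and 0.17 (SE 0.26) for Cdon. Thus ligand, receptor, decoy receptor and Gli1 had lower means in EAE, and Smo and Boc higher ones. The groups did not overlap for 6 of 9 members, 4 lower and 2 higher, against 56.8% of all genes tested. The members' median log2 fold change was -0.21, beside -0.01 for all genes. The genes were chosen with these values known, so nothing is read from these counts or from those of the comparisons below.

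The count moved with the libraries in the fit. Without cKO basal 2 and cKO EAE 3, which are in neither control group but enter the estimate of spread, the filter and the scaling, 6 members passed the threshold: Gli1 at -2.06 (SE 0.25), Shh at -0.98 (SE 0.25), Ptch1 at -0.57 (SE 0.15), Hhip at -0.48 (SE 0.15), Smo at 0.75 (SE 0.13) and Boc at 0.55 (SE 0.18). The fold changes were thus nearly the same and the errors smaller, and 45.8% of all genes passed. Gli1 no longer passed when any 1 control library was left out, basal 1, 2 or 3 or EAE 1, 2 or 3. Its log2 fold change then ran from -2.19 to -1.87. Without cKO basal 1 the number of members past the threshold was 2, and without cKO basal 2 it was 6. The shares of all genes in these fits with 1 library left out are not given here.

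The second comparison set EAE against basal in cKO mice. No member passed the threshold in edgeR, DESeq2 or limma voom, and in edgeR 0.0376% of all genes did. An unadjusted p below 0.05 in edgeR was reached by 0 members and by 3643 of 18601 genes. The log2 fold changes were -0.03 (SE 0.56) for Gli1, 0.17 (SE 0.40) for Ptch1, 0.25 (SE 0.31) for Shh, 0.16 (SE 0.21) for Hhip, 0.63 (SE 0.43) for Smo, 0.64 (SE 0.47) for Boc, 0.60 (SE 0.84) for Gli2, 0.53 (SE 0.31) for Gli3 and 0.24 (SE 0.26) for Cdon. Gli3 was the 1 member whose groups did not overlap, against 15.6% of all genes, and the members' median of 0.25 stood beside 0.08 for all genes. These values rested on the 2 libraries that stood apart. Without them Gli1 was lower in EAE, at -1.06 (SE 0.28), the 1 member past the threshold where 14.3% of all genes were, and Ptch1 was at -0.32 (SE 0.18). Gli2 was then at 0.01 (SE 0.32), Gli3 at 0.24 (SE 0.22), Boc at 0.28 (SE 0.22), Smo at 0.35 (SE 0.16), Hhip at 0.15 (SE 0.18), Cdon at 0.09 (SE 0.26) and Shh at 0.01 (SE 0.30).

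The difference between these 2 log2 fold changes, of cKO and of control mice, was computed as an interaction in the same fit. It was 2.04 (SE 0.80) for Gli1, 1.25 (SE 0.44) for Shh, 0.75 (SE 0.57) for Ptch1 and 0.65 (SE 0.30) for Hhip. Each was positive, as the log2 fold change in cKO mice was above that in controls. It was 0.81 (SE 1.18) for Gli2, 0.29 (SE 0.44) for Gli3, 0.10 (SE 0.66) for Boc, 0.07 (SE 0.37) for Cdon and -0.11 (SE 0.60) for Smo. No member passed the threshold in edgeR, as no gene did (0% of 18601). An unadjusted p below 0.05 was reached by 2 members and by 1697 of the 18601 genes. By adjusted p, DESeq2 passed 0 members and limma voom with sample weights passed 4 (Gli1, Ptch1, Shh and Hhip). The share of all genes that voom passed is not given here, so nothing is read from its count. Without the 2 libraries the difference was 1.00 (SE 0.38) for Gli1, 0.99 (SE 0.39) for Shh, 0.63 (SE 0.24) for Hhip, 0.25 (SE 0.23) for Ptch1 and 0.21 (SE 0.41) for Gli2. It was then -0.40 (SE 0.21) for Smo, -0.27 (SE 0.29) for Boc, -0.08 (SE 0.34) for Cdon and 0.00 (SE 0.28) for Gli3. Still no member and 0% of genes passed. In that fit 3 members and 3438 of 18956 genes had an unadjusted p below 0.05. The members' median was 0.65 with all libraries, beside -0.05 for all genes.

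The third comparison set libraries labelled cKO against control within EAE, where all mice were male. Gli1 was higher in cKO mice by 1.96 (SE 0.45) and Ptch1 by 0.64 (SE 0.12) on the log2 scale. These were the 2 members past the threshold, which 7.67% of 17914 genes tested passed, 6.13% as higher. Shh was at 0.90 (SE 0.22) and Hhip at 0.58 (SE 0.19), followed by Cdon at 0.24 (SE 0.13), Gli2 at 0.17 (SE 0.12), Gli3 at 0.12 (SE 0.12), Boc at -0.13 (SE 0.17) and Smo at -0.30 (SE 0.17). Higher without overlap were 5 of 9 members (Gli1, Gli2, Ptch1, Shh and Hhip), against 47.8% of all genes not overlapping in either direction. The members' median was 0.24 and that of all genes 0.00. As above, both counts describe genes chosen with these levels known and test nothing.

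This comparison, too, depended on single libraries. Without cKO EAE 3, 4 members passed the threshold, Gli1 at 1.38 (SE 0.28), Ptch1 at 0.57 (SE 0.12), Shh at 0.86 (SE 0.25) and Hhip at 0.69 (SE 0.18), where 18.2% of all genes did. The difference in Gli1 thus was smaller but kept its sign, while those of Ptch1, Shh and Hhip moved by less than their errors. Leaving out control EAE 1, 2 or 3 or cKO EAE 1 left 0 members past it, with Gli1 at 1.84 to 2.08 and Ptch1 at 0.60 to 0.69. Of the calls over all genes 80.0% were higher in cKO with all libraries and 50% without cKO EAE 3.

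At baseline, where all mice were female, the 9 genes did not separate the genotypes. All 9 overlapped between groups, while 5.77% of 17133 genes tested did not overlap. No member passed the threshold in edgeR, DESeq2 or limma voom, and in edgeR no gene passed (0%). An unadjusted p below 0.05 in edgeR was reached by 0 members and by 31 of 17133 genes. The log2 differences ran from -0.68 (SE 1.14) for Gli2 to 0.13 (SE 0.33) for Cdon, with Gli1 at -0.12 (SE 0.60) and Ptch1 at -0.15 (SE 0.52). Without cKO basal 2 they ran from -0.20 (SE 0.28) for Shh to 0.32 (SE 0.24) for Gli1, and Ptch1 was at 0.26 (SE 0.19). With these errors the data do not show that the genotypes were alike.

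**Figure D2:**
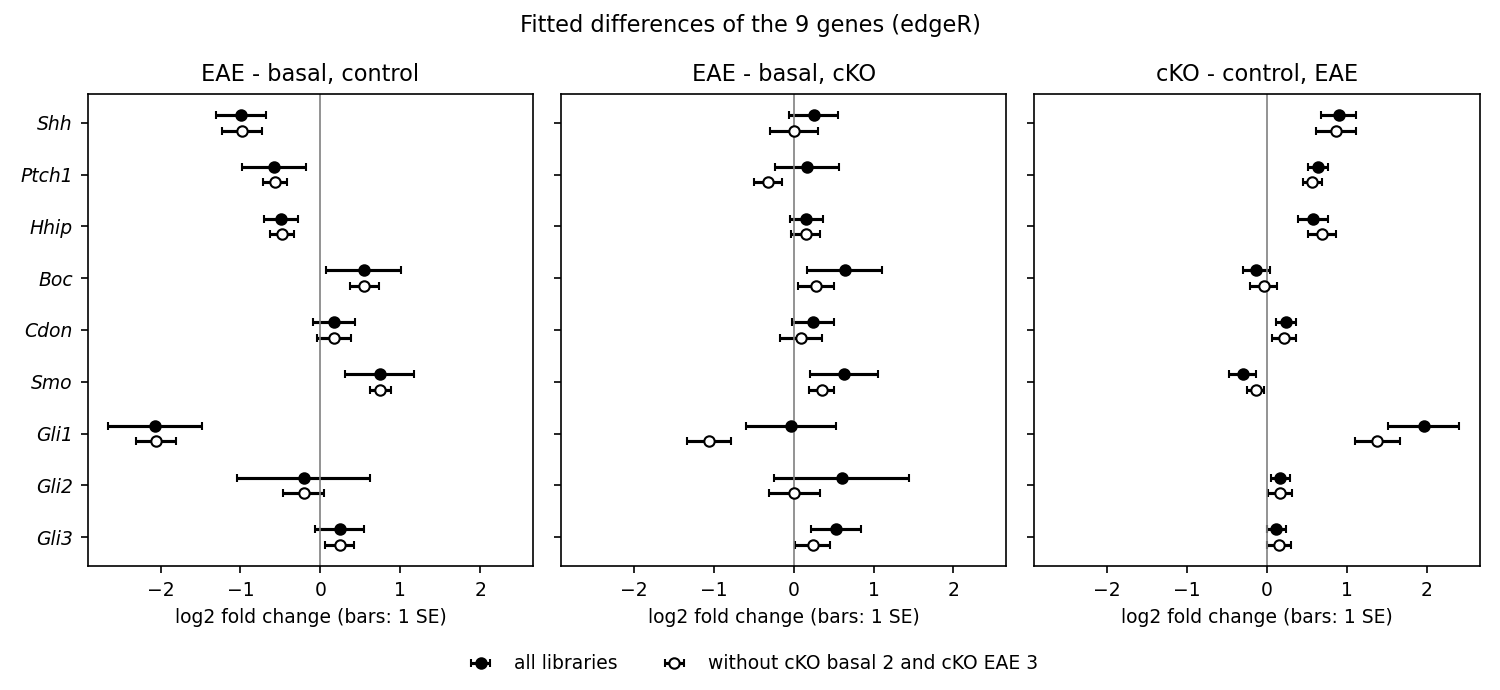
Fitted log2 fold changes (x axis) of the 9 genes in 3 comparisons, with bars of 1 SE, for all libraries (filled) and without cKO basal 2 and cKO EAE 3 (open). In controls the values hardly move and the bars shorten, while in cKO mice Gli1 moves from -0.03 to -1.06.

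Levels were compared between genes per kilobase of gene length (RPKM), leaving out cKO basal 2 and cKO EAE 3. In control basal Ptch1 was highest at 10.7 RPKM, above Boc at 4.91 and Smo at 4.27, whose ranges overlapped. Shh at 2.92, which overlapped Smo, and Hhip at 2.66 followed. Gli1 at 1.74, Gli2 at 1.47, Cdon at 1.28 and Gli3 at 0.927 RPKM formed the lowest run, each overlapping the next. In control EAE the order of levels was different: Boc and Smo, both at 7.14, and Ptch1 at 7.13 RPKM overlapped, and Gli1 was last at 0.414 RPKM, below the range of Gli3, the next gene up, at 1.09. In between lay Hhip at 1.90, Shh at 1.46, Cdon at 1.43 and Gli2 at 1.28 RPKM. In cKO EAE Ptch1 at 10.3 RPKM was again above Boc at 6.80 and Smo at 6.29, and Gli1 at 1.05 overlapped Gli3 at 1.18 RPKM. In cKO basal Ptch1 at 12.7 RPKM led Boc at 5.56 and Smo at 4.88, and Gli1 at 2.17 overlapped Shh at 2.54 RPKM.

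**Figure D3:**
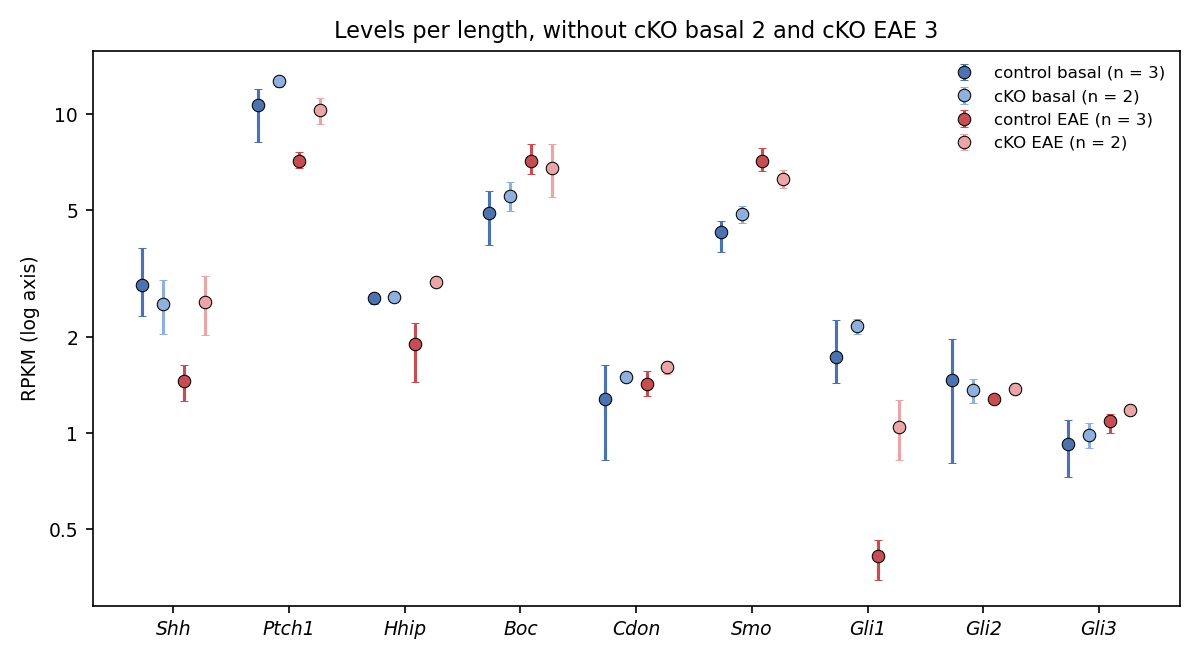
Mean RPKM (y axis, log scale) of each gene in the 4 groups, with bars from the lowest to the highest library, without cKO basal 2 and cKO EAE 3. Ptch1 leads in 3 groups, while in control EAE Boc, Smo and Ptch1 meet near 7.14 and Gli1 is lowest at 0.414.

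Ratios between 2 genes of the same library do not depend on the scaling of that library. The ratio of Ptch1, the inhibitor, to Smo, its target, per kilobase was 2.21, 2.54 and 2.70 in controls and 2.55, 2.90 and 2.67 in cKO mice at baseline. In cKO basal 2 this ratio was 2.90, although both of its genes were low, but in other ratios that library stood far apart: Gli1 to Gli2 was 33, on 1 read of Gli2, against 0.268 to 1.83 in the other 11 libraries, and Boc to Cdon was 0.963 against 3.1 to 5.68. In EAE the ratio was 0.978, 1.15 and 0.888 in controls and 1.92, 1.39 and 2.73 in cKO mice. All control EAE libraries were below all others, and 2 of 3 cKO EAE libraries were below every basal library, the exception being cKO EAE 3 with little Cd74. The ratio of Gli1 to Gli3 was 1.97, 2.37 and 1.38 in controls and 1.90, 1.02 and 2.54 in cKO mice at baseline. During EAE it was 0.302, 0.462 and 0.382 in controls and 1.11, 0.672 and 2.35 in cKO mice. Control EAE again lay below every other library. These ratios come from the same values as the levels above and are no separate support for them.

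**Figure D4:**
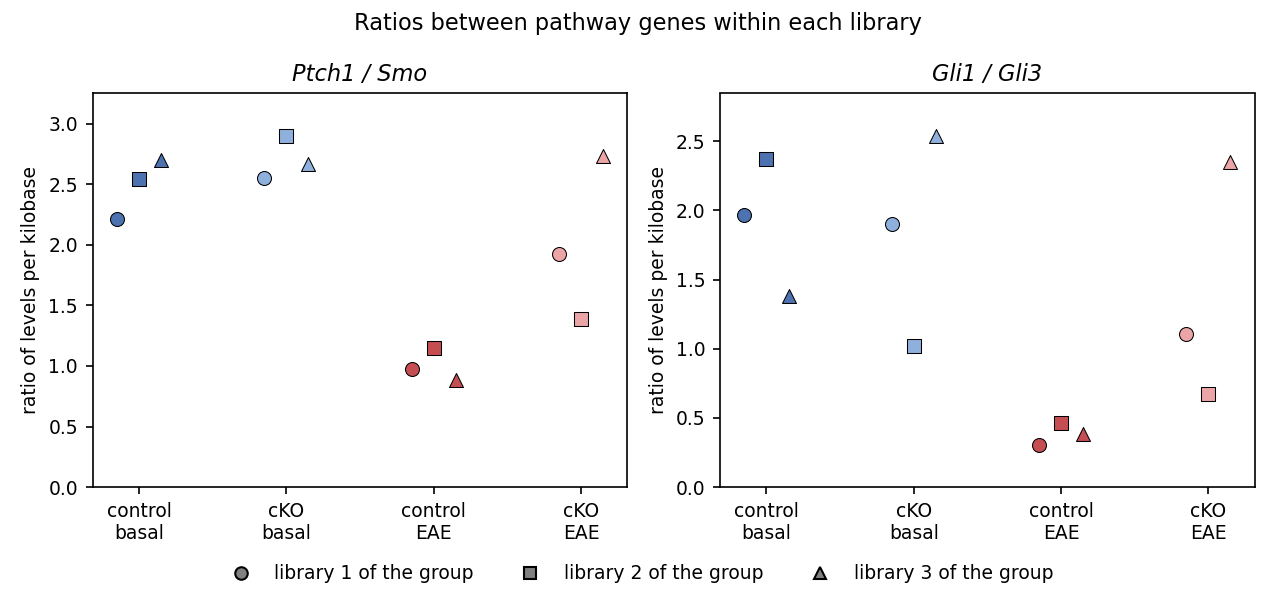
Ratio of levels per kilobase (y axis, from 0) of Ptch1 to Smo and of Gli1 to Gli3 in each library, by group. The 3 control EAE libraries lie between 0.888 and 1.15 for Ptch1 to Smo and between 0.302 and 0.462 for Gli1 to Gli3, below all others.

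Markers of several cell types moved with these genes, and their part in the results was not tested. Of all genes tested, 5.05% were called lower and 12.1% higher in control EAE against basal. Within EAE 6.13% were called higher in cKO. The counts of called markers below stand beside these shares. The summed level of 14 astrocyte markers was 10200 to 11000 CPM in control basal and 11900 to 13100 in control EAE, where 3 rose (among them Gfap, which marks reactive astrocytes) and 4 fell (Ntsr2, Gjb6, Fgfr3 and Aldoc). A split made after the data were seen left out Gfap. The other 13 summed to 8780 to 9560 CPM in control basal, 7360 to 7640 in control EAE and 8730 to 9660 in cKO EAE. Control EAE was the lowest of these groups, but cKO basal, at 7530 to 9160 CPM, overlapped it. Between control basal and control EAE the sum thus went opposite ways with and without this 1 marker. With Gfap the cKO EAE sum was 9760 to 13800 CPM, and 5 of the 14 were called higher in cKO than control within EAE and 0 lower. No astrocyte marker was at 0 in any library. The 8 neuronal markers summed to 4700 to 6080 CPM in control basal, 1940 to 2510 in control EAE and 3620 to 4980 in cKO EAE, and the 7 motor neuron markers to 247 to 334, 58.7 to 124 and 219 to 437 CPM. Both sums were thus lower in control EAE than in either of those groups, with 5 of 8 neuronal and 2 of 7 motor neuron markers called lower than at baseline. Whether this bears on Shh was not tested. Within EAE 5 of 8 and 4 of 7 were called higher in cKO. The 7 markers of microglia and macrophages summed to 116 to 138 CPM in control basal, 3450 to 8150 in control EAE and 146 to 2310 in cKO EAE, and the 7 T cell markers to 2.15 to 3.92, 86.8 to 94.9 and 3.53 to 42.6 CPM, with all 7 of each list called higher in control EAE than at baseline. Within EAE 0 of 7 markers in each of these lists were called between the genotypes, beside 7.67% of all genes. Without cKO EAE 3, 5 of 7 and 6 of 7 were called lower in cKO, where 18.2% of all genes were called. The lowest cKO EAE sums of both lists, 146 and 3.53 CPM, were those of cKO EAE 3, where 2 T cell markers were at 0. The 6 fibroblast markers summed to 70.5 to 81.5 CPM in control basal and 355 to 403 CPM in control EAE, with 5 called higher, and the 4 markers of oligodendrocyte precursors summed to 117 to 182 and 244 to 296 CPM. The 6 oligodendrocyte markers summed to 23200 to 24400 CPM in control basal, 12400 to 16100 in control EAE, with 1 called lower, and 17900 to 24100 in cKO EAE. The 6 Schwann cell markers summed to 200 to 222, 224 to 243 and 264 to 676 CPM in those groups. In cKO basal the sums were 8610 to 10600 CPM for astrocytes, 4440 to 7010 for neurons, 120 to 389 for motor neurons and 16700 to 62900 for oligodendrocytes, the highest of the last being that of cKO basal 2.

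The rest of the pathway was read from a list of 48 other Hedgehog genes, of which 46 passed the filter on low counts (Foxl1 and Foxa2 did not). This list, too, was chosen with earlier results of these data known. Its counts and p-values, here and in the paragraphs below, describe single genes in the fit and are no test of the pathway. In control EAE against basal, 3 rose and 3 fell, 6 of 46 beside 17.1% of all genes, and the median log2 fold change was 0.12 beside -0.01 for all genes. All 3 that rose were target genes of the pathway with roles in cell division. The cyclin Ccnd1 went from 18.8, 25.6 and 29.8 CPM to 74.1, 80.3 and 90.3 CPM, a log2 fold change of 1.72 (SE 0.41, adjusted p = 0.0155). The cyclin Ccnd2 was at 1.48 (SE 0.29, adjusted p = 0.00683), and Foxm1, a transcription factor of the cell cycle, at 2.62 (SE 0.55, adjusted p = 0.00902) in edgeR. These 3 genes went opposite to the members Gli1, Ptch1 and Hhip. Of the 11 target genes of this list that were tested, 9 had a positive log2 fold change and 2 a negative one. With 6 of 46 called beside 17.1% of all genes, nothing is read from these calls about the list. The 3 that fell were regulators: Prkaca, a catalytic subunit of protein kinase A, which restrains the pathway, at -0.89 (SE 0.24, adjusted p = 0.0255), its regulatory subunit Prkar1a at -0.63 (SE 0.17, adjusted p = 0.0285), and Kif3a, a motor needed to build cilia, at -0.64 (SE 0.19, adjusted p = 0.0451).

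No gene of ligand release or reception was called in control EAE with all libraries. The lowest p values there were those of Disp1, which releases ligand, at 0.53 (SE 0.27, adjusted p = 0.241), the ligand Ihh at -2.02 (SE 1.13, adjusted p = 0.286), and the glypicans Gpc4 at 0.67 (SE 0.33, adjusted p = 0.218) and Gpc6 at 1.02 (SE 0.55, adjusted p = 0.257) in edgeR's test. Ihh was at 0.651 ± 0.154 CPM in control basal, from 9 to 15 reads per library. Without cKO basal 2 and cKO EAE 3 edgeR called 20 of the 46, 12 higher and 8 lower, beside 45.8% of all genes, and the 6 genes named above were among them. The 4 genes of release and reception just named were called there too, with adjusted p values of 0.0264 for Disp1, 0.0467 for Ihh, 0.00964 for Gpc4 and 0.016 for Gpc6. In the same fit Sufu, which holds Gli proteins back, was higher at 0.72 (SE 0.17, adjusted p = 0.00408), and Prkacb, the other common catalytic subunit of protein kinase A, was lower at -0.80 (SE 0.12, adjusted p = 0.000129). Leaving out control basal 1, 2 or 3 or control EAE 1, 2 or 3 left 2 or 3 genes called, and leaving out cKO basal 2 gave 17.

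In cKO mice edgeR called none of the 46 genes between EAE and basal, beside 0.0376% of all genes. An unadjusted p below 0.05 was reached by 5 of the 46 and by 3643 of 18601 genes. DESeq2 called 0 of the 46 and limma voom 10. The shares of all genes that DESeq2 and voom called are not given here, so nothing is read from these counts. The lowest p values in each role were those of the ligand Dhh at 2.86 (SE 0.94, adjusted p = 0.174), Scube1, a secreted aid of ligand release, at 0.52 (SE 0.35, adjusted p = 0.435), Gpc4 at 0.69 (SE 0.34, adjusted p = 0.282), Gpc6 at 0.79 (SE 0.55, adjusted p = 0.446), the ciliary receptor Gpr161 at -1.11 (SE 0.40, adjusted p = 0.197), Kif3a at -0.46 (SE 0.19, adjusted p = 0.237), Foxm1 at 1.56 (SE 0.54, adjusted p = 0.189) and Ccnd1 at 0.98 (SE 0.40, adjusted p = 0.229). Dhh reached 0.981 ± 0.540 CPM in cKO EAE (SD, n = 3). Without the 2 libraries Ccnd1 was higher in EAE by 0.80 (SE 0.21, adjusted p = 0.0223) and Foxm1 by 1.77 (SE 0.37, adjusted p = 0.00583) in edgeR. These were the 2 genes of the list called by edgeR, beside 14.3% of all genes.

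The difference between the fold changes of cKO and control was not called by edgeR for any of the 46 genes, as for no gene tested. An unadjusted p below 0.05 was reached by 3 of the 46 and by 1697 of 18601 genes. DESeq2 called 0 of the 46 and limma voom 7, and nothing is read from these counts without their shares of all genes. It was -1.27 for Ccnd2 (SE 0.41), 0.92 for Prkaca (SE 0.33) and 0.87 for Prkacb (SE 0.37), all with an adjusted p of 0.547, and -1.06 for Foxm1 (SE 0.75, adjusted p = 0.661). For Scube1, Dhh, Lrp2 and Gpc3, the next by role, it was 0.79 (SE 0.50), 1.64 (SE 1.35), -0.59 (SE 0.49) and 0.59 (SE 0.63), with adjusted p values of 0.626 to 0.775.

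Within EAE, edgeR called 3 of the 45 genes tested, beside 7.67% of all genes. These were Prkaca at 0.57 (SE 0.13, adjusted p = 0.0487), Prkacb at 0.68 (SE 0.15, adjusted p = 0.0481) and the kinase gene Gsk3b at 0.51 (SE 0.11, adjusted p = 0.0482). All 3 were higher in cKO, as were 80.0% of the calls over all genes. With a count near the share of all genes, nothing is read from it about the list. Prkaca was at 195, 209 and 160 CPM in control EAE and at 290, 248 and 278 CPM in cKO EAE, without overlap. The cyclins Ccnd1 at -0.85 (SE 0.21, adjusted p = 0.0555) and Ccnd2 at -0.70 (SE 0.22, adjusted p = 0.0818) missed the threshold with all libraries. Both were lower in cKO and called without cKO EAE 3, at -0.64 (SE 0.12, adjusted p = 0.0161) and -0.48 (SE 0.10, adjusted p = 0.0215), where 7 of 45 were called. Without cKO EAE 2 it was 9 of 45, and without control EAE 1, 2 or 3 or cKO EAE 1 it was 0. The lowest p values of release and reception were those of Disp1 at -0.34 (SE 0.12, adjusted p = 0.0928), Scube1 at 0.69 (SE 0.24, adjusted p = 0.0967), Gpc4 at -0.47 (SE 0.14, adjusted p = 0.0703) and Gpc6 at -0.36 (SE 0.23, adjusted p = 0.294). At baseline edgeR called none of 45, as it called no gene, and DESeq2 called 0 of them. An unadjusted p below 0.05 in edgeR was reached by 0 of the 45 and by 31 of 17133 genes. The genes with the lowest p in each role (Scube1, Scube2, Lrp2, Gpc4, Gpr161, Kif3a, Ccnd2 and Rab34) had log2 differences from -0.52 for Gpc4 to 0.94 for Gpr161, all with an adjusted p of 0.997.

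**Figure D5:**
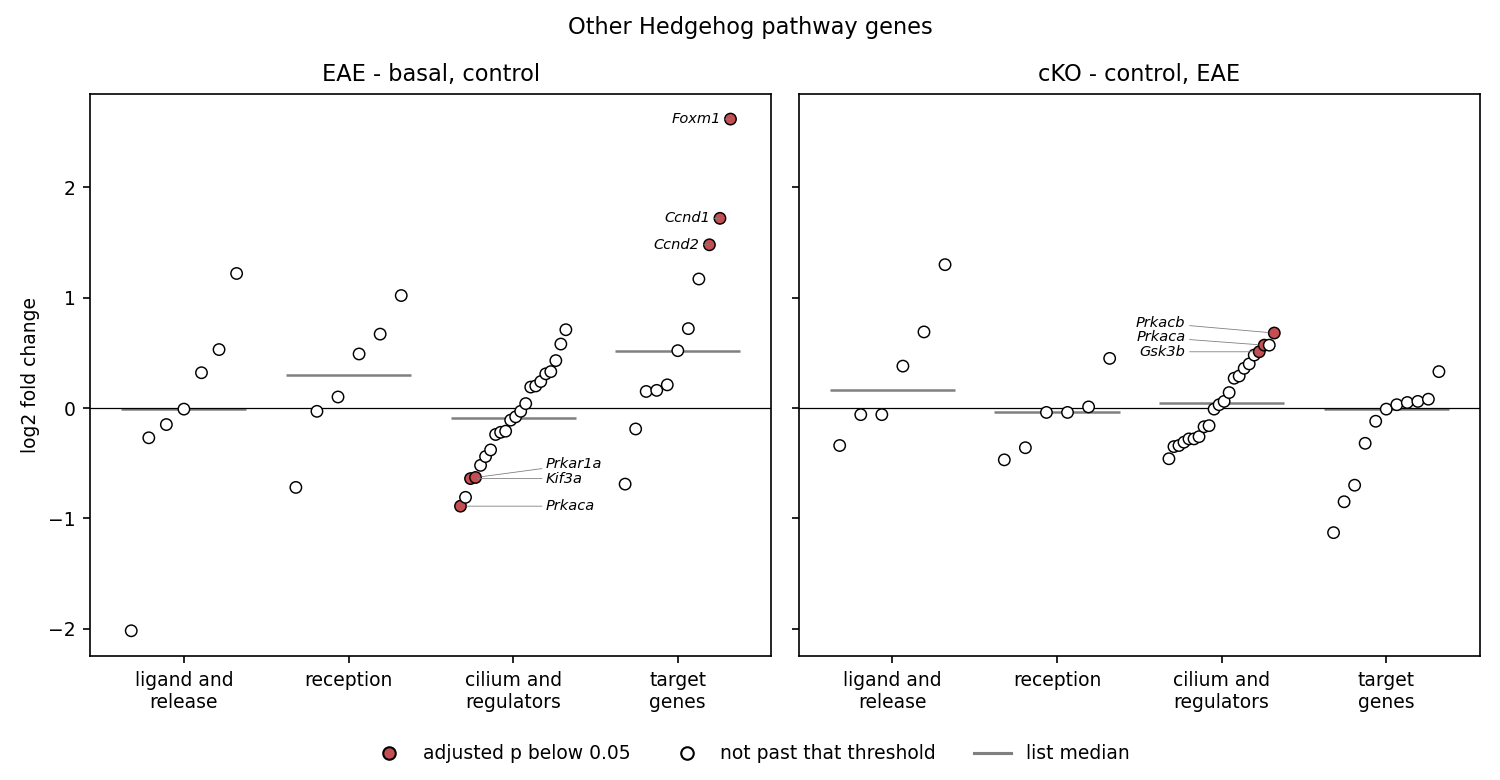
Log2 fold change (y axis) of the other pathway genes by role, with 1 point per gene and a grey line at the list's median, for EAE against basal in control and for cKO against control in EAE. Foxm1, Ccnd1 and Ccnd2 are the called genes above 0 on the left, and Prkaca, Prkacb and Gsk3b are the called ones on the right.

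The genes whose pattern over the 12 libraries was most like that of Gli1 were Ankrd34b, the potassium channel gene Kcnn2, the neurotensin receptor gene Ntsr2 (one of the astrocyte markers), the glycine receptor subunit Glrb and the matrix proteoglycan Acan. Likeness was the root mean square difference of centred log2 CPM, and it ran from 0.358 to 0.414 among these 5 of 16417 genes compared. Ptch1 ranked 434 at 0.598 and Shh 812 at 0.656. Ntsr2, for example, stood at 250 ± 24.7 CPM in controls and 182 ± 79.7 in cKO mice at baseline, and at 87.5 ± 15.7 and 204 ± 27.2 CPM during EAE (SD, 3 libraries each). Even the closest gene was thus further from Gli1 than the nearest genes were from Ptch1. These distances are not scaled for depth, and Gli1 held 24 to 214 reads per library where Ptch1 held 512 to 3223. They therefore do not show that the pattern of Gli1 is the more singular. Closest to Ptch1 were Nt5dc3, the protocadherin Pcdh17, C530008M17Rik, the actin regulator Cyfip2 and the calcium pump Atp2a2, at 0.069 to 0.096, and Gli1 ranked 6592. Pcdh17 stood at 103 ± 20.6 CPM in controls and 100 ± 55.9 in cKO mice at baseline, and at 72.7 ± 8.71 and 106 ± 13 CPM during EAE (SD, 3 libraries each). In cKO basal 2, where Ptch1 was at 46.6 CPM, Pcdh17 was at 35.7 CPM, against 127 to 137 CPM in the other cKO basal libraries. Cyfip2 was at 222 CPM there, against 790 to 876 CPM. All 5 genes closest to Ptch1 were lowest of their group in that library. The distances were not computed without cKO basal 2 and cKO EAE 3, so how far neighbours and ranks rest on these libraries was not tested.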

How the data were processed

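RNA of whole spinal cord was sequenced from 12 mice. The deposited values are raw counts per gene, which the authors made with the aligner HISAT2 2.0.5, the genome mm10 and the counter featureCounts 1.5.0-p3, as the submitters' notes list. Strand and multi-mapping settings are not given in the sources used here. From these counts, edgeR 4.0.16 (with limma 3.58.1, R 4.3.3) computed TMM factors, CPM and RPKM by the deposited gene length. Genes were filtered with edgeR's filterByExpr and tested with its quasi-likelihood test, with Benjamini-Hochberg adjustment over all genes tested and a threshold of 0.05. EAE against basal and the interaction came from 1 fit of 12 libraries, and the genotypes were compared in fits of 6. The SE is the log2 fold change divided by the square root of F. A check of the test on simulated counts used the same spread for every gene and no library that stood apart. It therefore does not show how the test behaves with cKO basal 2 and cKO EAE 3. Each p-value sets a difference against the spread between mice within groups. That spread is pooled over all groups of a fit and drawn towards that of other genes. The p-values of EAE against basal in controls therefore also depend on the cKO libraries.

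The 9 members, the 48 other pathway genes and the 12 marker lists, taken from general knowledge, were chosen with earlier results of these data known. Of the 48, the text names those called and the 2 with the smallest p in each role and comparison. The genes most like Gli1 or Ptch1 are the 5 nearest with a mean of at least 1 CPM; 0.5 was added to CPM before log2. Alternatives were DESeq2 1.42.0 size factors and Wald test, no filter, limma voom with sample weights, a replicate block, other sets of libraries, and, chosen after seeing the data, library totals alone.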

Additional observations from a re-analysis of the deposited data

How the results depend on the processing

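The member values that passed the threshold with all libraries (Gli1 in control EAE, Gli1 and Ptch1 between genotypes in EAE) kept their direction under every alternative run. Gli1 in cKO mice, at -0.03, ran from -1.06 without the 2 libraries to 0.30 without cKO basal 3. The counts of calls were less stable, and all are descriptions. The share of all genes past the threshold is given above only for edgeR with all libraries and without the 2 libraries. Counts under the other alternatives therefore have no background beside them. For EAE against basal in controls the count of called members was 1 with all libraries, 2 with DESeq2's Wald test, 7 with limma voom, 6 without cKO basal 2 and cKO EAE 3, 6 when only the 6 control libraries were fitted, 0 with library totals alone and 0 to 6 when 1 library was left out. The other pathway genes gave 6, and 3 without a filter on low counts, 23 with voom, 20 without the 2 libraries, 17 with the 6 libraries fitted and 2 to 17 with 1 library left out. For EAE against basal in cKO mice, 0 members were called and 1 without the 2 libraries, and 0 other pathway genes, 10 with voom, 2 without the 2 libraries and 0 to 1 with 1 left out. For the interaction voom called 4 members and 7 others in place of 0. For cKO against control in EAE the 2 called members became 1 with DESeq2 size factors, 4 with the Wald test, 4 with voom, 4 without the 2 libraries, 0 with all 12 libraries fitted, 0 with library totals alone and 0 to 4 with 1 left out. The 3 other genes became 0, 10, 17, 7, 0, 0 and 0 to 9. The cause of these moves was not tested, beyond the fewer or other libraries fitted. Library totals alone moved the median of all genes by 0.10 in cKO mice and -0.11 between genotypes at baseline.

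With the replicate number as a block, 1 member (Gli1, at -2.12) was called in control EAE, and 0 members and 0 other pathway genes were called between genotypes in EAE; it changed no other count by over 1.5 times. Same-numbered libraries correlated at -0.51 to 0.42, and 11 of 24 correlated best with their own number. With 3 libraries per group, 1 of them cKO basal 2 at baseline, these values cannot settle whether the numbers pair the mice.

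At 15128913 to 17592105 counts, Gli1 in control EAE rested on 30 to 39 reads per library.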
